A study of Mus musculus with 12 samples.

Results

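Long intergenic noncoding RNAs (lincRNAs) are transcripts of genes that lie apart from coding genes and are spliced and polyadenylated much like messenger RNA, but are not known to encode a protein of ordinary length. Some act in the nucleus at the gene they come from or next to it, some hold nuclear bodies together, and others are only the precursors from which small RNAs are cut. In glia and in macrophages several of them are induced with inflammatory genes. The genes described here were selected on their annotation and their level: rows of the deposited table of all libraries with the biotype lincRNA and at least 1 FPKM in at least 2 of 12 libraries, leaving out chromosomes X and Y. FPKM is a fragment count scaled by the length of the gene and the size of the library, so levels of different genes are compared per length. The rule gave 219 of 5559 lincRNA rows, in a table of 54532 genes. Of the 4915 lincRNA rows outside chromosomes X and Y, 2316 had a value above 0 but did not reach that level and 2380 were listed at 0 in all libraries, and 3 rows on X or Y that reached it were left out. Just inside the threshold stood 1300002E11Rik, 1700036A12Rik and A330035P11Rik, whose second highest values were 1.00, 1.01 and 1.01 FPKM, and just outside stood Gm37986, Gm6093 and 2810455O05Rik at 0.996, 0.989 and 0.977. Because the level chose the genes, a gene that reached 1 FPKM only in one arm of a comparison had to be higher there, and such genes are counted apart below.

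The libraries came from astrocytes of the cortex and hippocampus of C57BL/6 mice, dissociated with trypsin and papain and kept in culture, with no sorting of cells described, and were made from total RNA. There were 6 groups of 2 libraries in 3 experiments, each with controls of its own. The first compared astrocytes labelled as conditional knockouts of Ogt (Ogt cKO), the X-linked gene of the enzyme that attaches O-linked N-acetylglucosamine to proteins, with cKO controls, both 4 months old. Both groups carry the same genotype label, Glast-CreERT2 with a floxed Ogt allele over Y, in which an inducible Cre under the promoter of an astrocyte glutamate transporter deletes Ogt. Induction of the Cre is not described, and only the sample descriptions tell the groups apart. The second compared a 5X APP Alzheimer's mouse model (AD model) with wild-type AD controls, aged 6 months by the sample labels but 5 months by the series text. The third compared wild-type astrocytes of mice aged 2 months that received amyloid beta 1-42 (Aβ) at 20 µM for 72 h, or 73 h in the label of replicate 2, with untreated wild-type cells. The labels do not say whether replicates were separate animals or cultures, so p-values measure only the spread between these libraries, which may be technical.

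Reads recovered from the deposited values came to 16418852 to 18705309 per library, and the 219 lincRNA genes took 0.141% to 0.364% of them. Over these genes replicate correlations were 0.932 to 0.958 for the 4 groups of the Ogt cKO and Aβ experiments, against 0.834 for AD controls and 0.798 for AD model libraries. These are Pearson correlations of log2(FPKM + 1) across 219 genes, a description of the libraries and not a test. Between replicates, 22 genes of the AD control and 25 of the AD model stood at least 1 apart on that scale, against 2 to 5 in each other group. Neither AD control was most like its own replicate (r = 0.834): AD control replicate 1 was closer to Ogt cKO replicate 2 (0.868) and Aβ control replicate 2 (0.863). AD control replicate 2 was more like the cKO control libraries (r = 0.928 and 0.918) than like its own replicate, and AD model replicate 1 was more like the Aβ-treated libraries (0.889 and 0.866). The Ogt cKO and Aβ control libraries, which the labels separate by genotype, age and experiment, correlated at 0.940 to 0.956, close to the replicates' own values, and a single lincRNA gene of 219 differed by 1 or more between their group means, against 47 between the Ogt cKO and its own control. Ogt itself was at 20.8 and 24.7 FPKM in the cKO control and 11.04 and 12.03 in the Ogt cKO, a difference of -0.92 ± 0.30, adjusted p = 0.038 (log2(FPKM + 1), ± standard error, as for every difference below), and at 7.85 and 10.4 in the wild-type Aβ control.

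**Figure D1:**
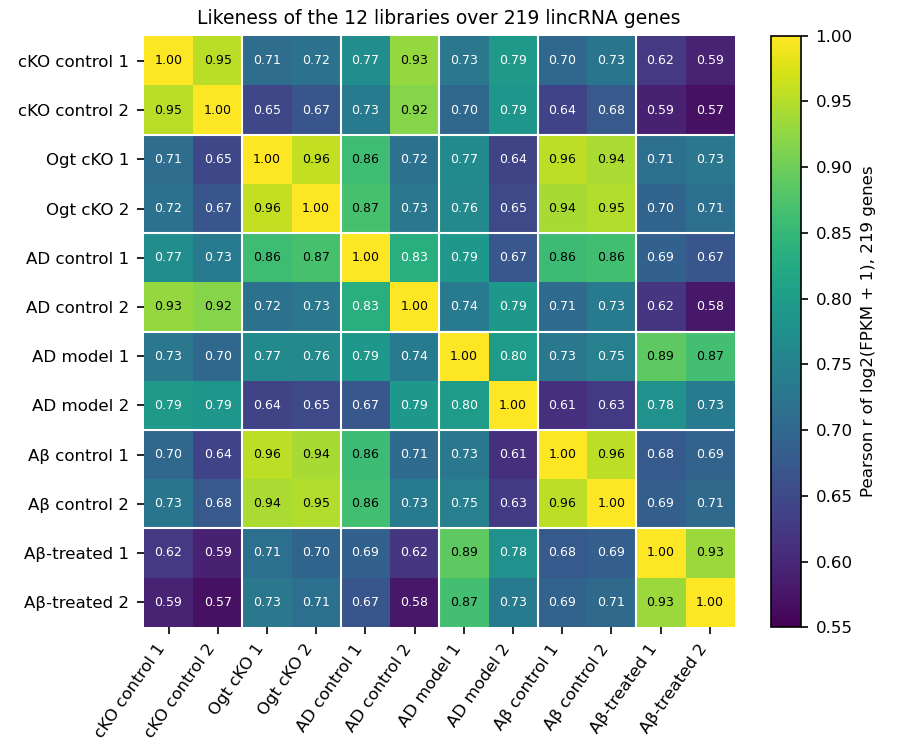
Pearson correlation of log2(FPKM + 1) over 219 lincRNA genes for every pair of the 12 libraries, in the order of the groups, with white lines between groups. The 2 Ogt cKO libraries sit at 0.94 to 0.96 with the 2 Aβ control libraries, and the AD libraries at 0.83 and 0.80 with their own replicates.

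Astrocyte markers were measured in every library, with all 11 of the markers listed at 1 FPKM or more in at least 2 libraries, but markers of other cell types were high too. The summed level of 11 microglia and macrophage markers ran from 1131 to 9186 FPKM over the libraries and that of 7 pericyte and smooth muscle markers from 204 to 4047, beside 86.7 to 660 for 11 astrocyte markers. Lyz2 was the largest part of the microglia and macrophage sums, at 522 to 5762 FPKM. The summed level of 6 neuronal markers ran from 45.4 to 183 FPKM, most of it Tubb3, at 40.6 to 177. Neuronal Snap25, Syt1 and Rbfox3 were at or near 0 in all libraries. Of the 3 neuronal markers tested, Tubb3, Stmn2 and Nefl, 1 was higher in the Ogt cKO and none changed in the AD model. With Aβ 1 was higher and 2 lower. The epithelial and mesothelial markers Krt19 and Msln, with Krt8, Krt18 and Upk3b at or near 0, were higher in the Ogt cKO (summed over the 5 genes 1.83 and 0.443 FPKM, then 168 and 154) and lower with Aβ (130.0 and 199, then 15.5 and 19.01). A gene can be lower because fewer cells of a type were present or because each cell held less of its RNA, and in bulk libraries these cannot be told apart.

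LincRNAs were expressed at low levels, with a median over the 219 genes of 1.12 FPKM (mean of 12 libraries) against 6.87 for the 12344 protein-coding genes that reached the same threshold. The median lincRNA gene had 28.4 reads per library, a coding gene 581. The median standard error of a log2 difference was 0.26 for the lincRNAs and 0.18 for the coding genes. A few genes carried much of the signal: the 10 highest gave 49.1% of the summed FPKM, 13 genes had a mean of 10 FPKM or more, 110 a mean of 1 to 10 and 96 a mean under 1. In all 12 libraries 38 genes reached 1 FPKM, 57 did so in at least 1 library of every group, and 23 in the libraries of 1 group only. Most have no function on record: 116 bear a Gm number and 63 a Rik name, which are placeholders for predicted genes and cDNA clones. The median gene was 1377 bases long with 3 exons and a GC content of 48.3%. Of the 219, 35 lay within 1 kb of a coding gene and pointed away from it, a divergent arrangement common for lincRNAs, and 90 overlapped another gene of the table, 29 of them a coding gene. Whether the authors counted reads by strand is not given in the sources used here, so the values of overlapping genes are uncertain.

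**Figure D2:**
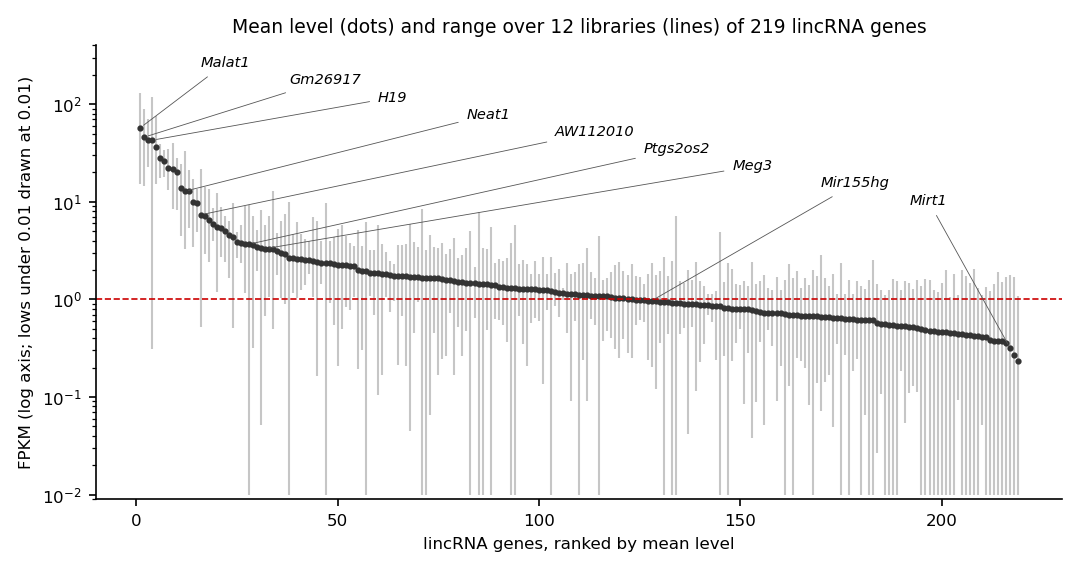
Mean FPKM (dots) and range over 12 libraries (grey lines) of 219 lincRNA genes ranked by mean, on a log axis, with the 1 FPKM level of the selection as a red dashed line. Malat1 stands highest at 57.4 FPKM and 96 genes have means under 1; lows under 0.01, among them 0, are drawn at 0.01.

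The order of the highest means was Malat1 (57.4 FPKM), Gm26917 (46.1), 2900097C17Rik (43.2), H19 (42.9), Gm10076 (36.6), 1810058I24Rik (28.3), Tmem250-ps (26.1), Gm42047 (22.3), Epb41l4aos (21.6) and Snhg6 (20.2). Neighbours in this order did not differ beyond their spread over libraries: those of Malat1 ran from 15.3 to 132 FPKM and those of H19 from 0.313 to 119.7. Tmem250-ps, a pseudogene by its name, ran from 17.9 to 33.8. Gm26917 lies beside Gm42418, in a stretch of chromosome 17 known to match ribosomal RNA, and Gm42418 was listed at 0 in all libraries. Among the 10, 2900097C17Rik was lower in the Ogt cKO (-0.86 ± 0.27, adjusted p = 0.033), a call lost whichever library was left out (-0.92 to -0.80), and 1810058I24Rik, whose RNA has been reported to encode a small mitochondrial peptide of macrophages, was lower with Aβ (-0.84 ± 0.18, adjusted p = 0.0071), a call lost without Aβ control replicate 1 (-0.93 to -0.74). Pvt1, the neighbour of the growth gene Myc, was called in no experiment (0.59 ± 0.24, adjusted p = 0.075 in the Ogt cKO). The annotation also holds doubtful entries, such as Zfp469 and Lsmem2, which carry the descriptions of coding genes.

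In the Ogt cKO experiment lincRNAs rose and fell in similar numbers, a balance that depended on the scaling. At an adjusted p under 0.05 by limma, fitted on log2(FPKM + 1) over 14014 genes and adjusted over all of them, 83 of 219 lincRNA genes were called, 40 higher and 43 lower in the Ogt cKO. That is 37.9% of the lincRNAs against 42.3% of all genes tested (22.6% higher, 19.8% lower), a share near that background. The split was 37 higher and 52 lower when rescaled to the total of reads and 37 and 51 with voom on recovered reads. Their median difference was -0.01 on the log2 scale and that of all genes tested -0.00. Among the 192 genes that met the level rule also with either arm left out, 69 were called. The count depended on each library: leaving out the cKO controls in turn gave 43 (replicate 1; 25 higher, 18 lower) and 19 (replicate 2; 7 higher, 12 lower), and leaving out the Ogt cKO libraries gave 27 (replicate 1) and 36 (replicate 2). In the same libraries 8 of 11 astrocyte markers and 5 of 11 microglia markers were lower and none higher, 3 of 6 oligodendrocyte markers were lower (90.6 and 197 FPKM, then 23.4 and 19.8), no fibroblast marker was called, and 4 of 7 pericyte and smooth muscle and 5 of 6 endothelial markers were higher and none lower. Their summed levels went from 541 and 624 FPKM to 107 and 122 (astrocyte), from 9186 and 7162 to 4178 and 3124 (microglia, most of it Lyz2, which was not called), from 993 and 498 to 3979 and 4026 (pericyte and smooth muscle) and from 51.0 and 41.6 to 259 and 249 (endothelial). Their part in the lincRNA differences was not tested.

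The nuclear RNAs Malat1 and Neat1, neighbours on chromosome 19 at chr19:5795690-5802672 and chr19:5824708-5845478 (mm10, minus strand), both fell. Malat1 gathers in nuclear speckles, which store splicing factors, and Neat1 is the scaffold around which paraspeckles form. Malat1 was at 92.8 and 132 FPKM in the cKO control and 31.3 and 31.6 in the Ogt cKO, and Neat1 at 28.1 and 33.02, then 6.83 and 7.73. For each gene both cKO controls stood above both Ogt cKO libraries, and the group means differed 3.56-fold and 4.20-fold. On the log2 scale the differences were -1.78 ± 0.63 (adjusted p = 0.048) and -1.93 ± 0.63 (adjusted p = 0.037). Both calls were lost whichever of the 4 libraries was left out: the difference stayed between -2.03 and -1.53 for Malat1 (adjusted p up to 0.20) and between -2.04 and -1.82 for Neat1 (up to 0.15). The spread that enters the test is shared over all 6 groups, and the AD controls disagreed in both genes, with Malat1 at 22.8 and 127 FPKM and Neat1 at 3.28 and 22.7. Fitted on the 4 libraries of the comparison alone, their adjusted p was 0.0023 and 0.00092. The levels in the Ogt cKO were close to those of the wild-type Aβ control, 26.9 and 32.8 FPKM for Malat1 and 5.43 and 6.602 for Neat1. Of the genes of 13 paraspeckle proteins, measured as RNA, 1 was higher and none lower, Hnrnpk (0.61 on the log2 scale). The genes of the core pair, Nono and Sfpq, were at 0.42 ± 0.15, adjusted p = 0.051 and 0.38 ± 0.17, adjusted p = 0.098. Of all genes tested 42.3% were called in this comparison.

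Of 5 lincRNAs linked to inflammation 3 rose in the Ogt cKO and none fell, with 2 and 1 higher in the AD model and with Aβ. Of all genes tested 22.6%, 9.8% and 20.8% were called higher in the 3 experiments. Ptgs2os2, also called lincRNA-Cox2, is induced by Toll-like receptors and lies 50816 bp from the prostaglandin synthase gene Ptgs2, at chr1:150159043-150164948 on the minus strand. It was at 0.0304 and 0 FPKM in the cKO control, which rests on 1 and 0 reads, and at 9.18 and 7.22 in the Ogt cKO, from 252 and 202 reads. It was thus close to absent in the controls and present in both Ogt cKO libraries, with a difference of 3.17 ± 0.51, adjusted p = 0.0031. Ptgs2 itself was at 3.36 and 1.97, then 94.6 and 96.7 FPKM (4.75 ± 0.89, adjusted p = 0.0049). The wild-type Aβ controls held the lincRNA too, at 5.42 and 6.202 FPKM. The promoter of Ptgs2os2 is shown because the gene gave the largest rise of the comparison and its start in RefSeq is the one in the table. It holds 1 match to the core of the interferon-stimulated response element, GAAA, any 2 bases and GAAA again, searched on both strands, in capitals and 73 bases before the start, as the reverse complement. That motif occurs in 3.44% of 32851 RefSeq promoters of this length and in 2 of the 81 lincRNA promoters whose start lay within 100 bp of the table's.
Ptgs2os2 promoter, chr1:150164899-150165198, minus strand, GRCm38.p6, RefSeq: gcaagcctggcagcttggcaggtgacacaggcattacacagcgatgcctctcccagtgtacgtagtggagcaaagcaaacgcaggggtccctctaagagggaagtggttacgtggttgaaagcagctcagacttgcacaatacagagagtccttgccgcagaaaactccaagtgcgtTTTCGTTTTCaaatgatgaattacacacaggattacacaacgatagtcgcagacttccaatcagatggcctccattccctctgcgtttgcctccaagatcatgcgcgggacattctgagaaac
The match is a description of these letters and does not show binding.

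Gm14005, named Morrbid in RefSeq, is known to restrain the cell death gene Bcl2l11 in short-lived myeloid cells. It was at 1.04 and 0.322 FPKM in the cKO control and 7.09 and 5.44 in the Ogt cKO (2.13 ± 0.55, adjusted p = 0.015), with both Ogt cKO libraries above both controls. Bcl2l11 moved the other way, from 9.39 and 9.40 to 3.02 and 3.04 FPKM (-1.37 ± 0.21, adjusted p = 0.0027). The call of Gm14005 was lost without cKO control replicate 2, Ogt cKO replicate 1 or Ogt cKO replicate 2 (1.82 to 2.45 over the fits that leave out 1 library). Since 4 other genes overlap it, its reads are uncertain. Bcl2l11, Ptgs2 and, further on, Acod1 lie beyond 10 kb of the lincRNA and were added after their values were seen. AW112010, a lincRNA induced by interferon in macrophages, did not follow this pattern, at 3.58 and 1.39 FPKM in the cKO control and 1.32 and 2.51 in the Ogt cKO (-0.21 ± 0.33, adjusted p = 0.62). Other large rises were in predicted genes that were nearly silent in the controls: 2010300F17Rik went from 0.169 and 0.0514 to 5.79 and 6.47 FPKM (2.68 ± 0.61, adjusted p = 0.00999), Gm32255 from 0 and 0.0359 to 4.62 and 4.71 (2.48 ± 0.67, adjusted p = 0.019) and Gm13056 from 0.565 and 0.516 to 6.88 and 4.97 (2.16 ± 0.51, adjusted p = 0.012). Gm37565 had no read in either control and 26 and 30 in the Ogt cKO, at least 11.1-fold higher against a floor of 3 reads per library. 2010300F17Rik lies inside Skap1 on the other strand, and Skap1 was at 0.0356 and 0.00650, then 0.0426 and 0.159 FPKM. The call of 2010300F17Rik was lost without cKO control replicate 2, Ogt cKO replicate 1 or Ogt cKO replicate 2 (2.61 to 2.76) and that of Gm13056 without cKO control replicate 2 or Ogt cKO replicate 1 (1.96 to 2.35). Gm32255 (2.45 to 2.50) and Gm37565 (2.13 to 2.27) lost theirs whichever library was left out.

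**Figure D3:**
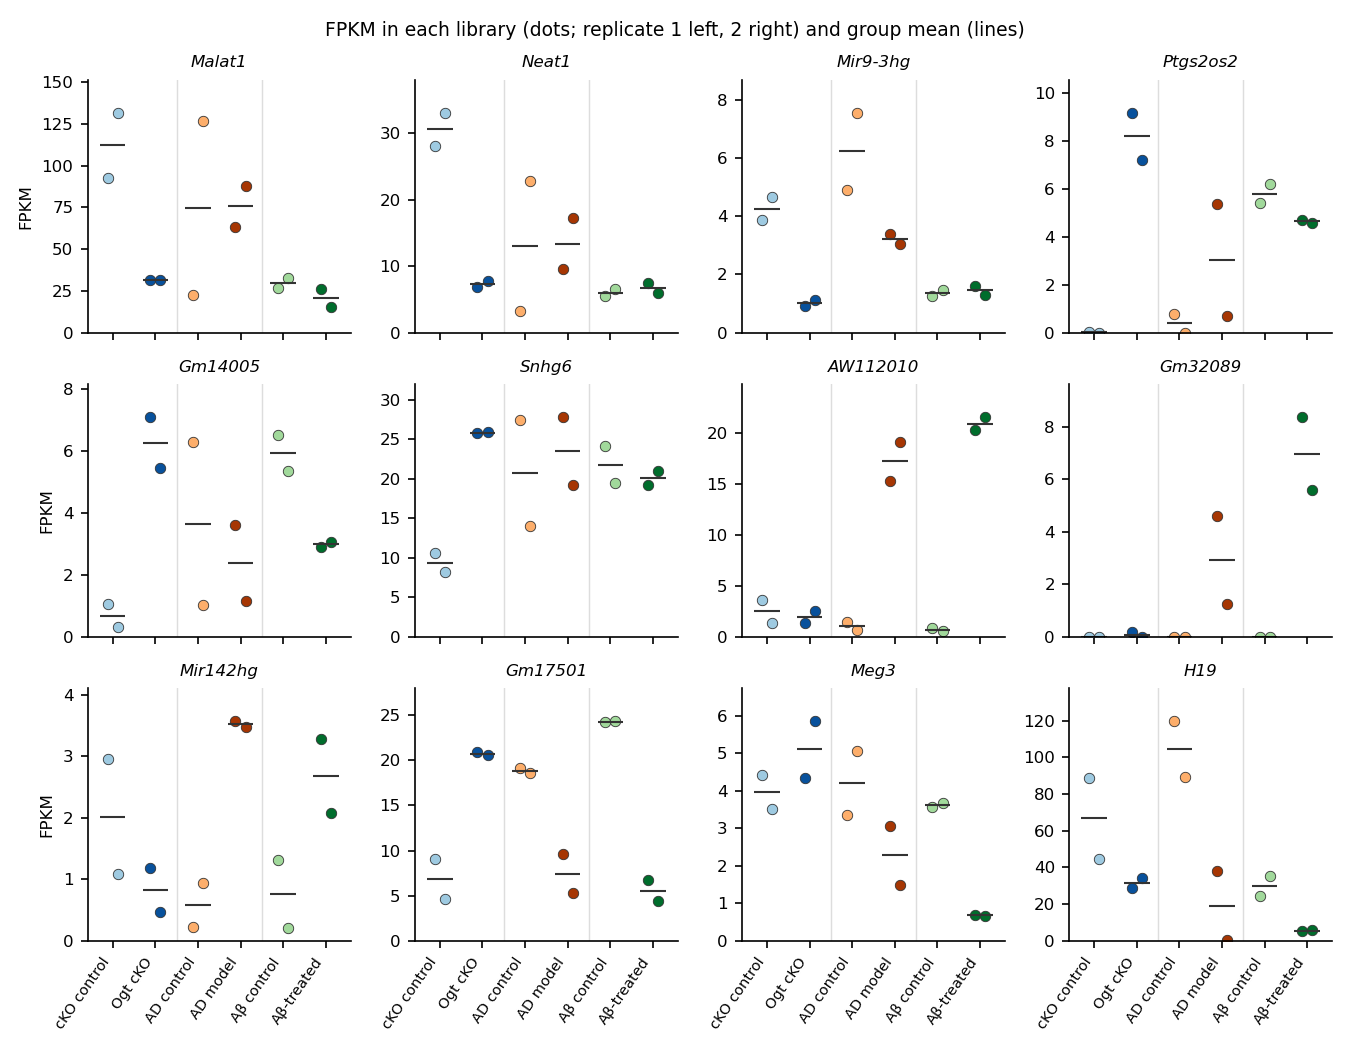
FPKM of 12 lincRNA genes in each library (dots, replicate 1 left and replicate 2 right) with group means as lines, grey lines parting the 3 experiments, and each vertical axis starting at 0. Malat1 and Neat1 are high in both cKO controls and low in the Ogt cKO and all Aβ libraries, and AW112010 is at 15.3 to 21.5 FPKM in the AD model and Aβ-treated libraries and at 3.58 or below in all others.

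MicroRNA sequences of RefSeq lie within the bounds of 15 of the lincRNA genes, 31 mature sequences in all with miR-9 counted for each host. A microRNA is cut from a hairpin in such a precursor and finds its targets by its seed, bases 2 to 8 from the 5′ end. Precursor RNA was measured here and the mature microRNAs were not. In the Ogt cKO 6 of 15 hosts were called, 40.0% against 42.3% of all genes tested. The host of miR-155 was higher, and 5 were lower, among them all 3 hosts of miR-9, a microRNA of neural progenitors and glia whose copies on 3 chromosomes yield the same mature sequence. Left out below are the other arm of each hairpin shown, and miR-1839, miR-3093 and miR-1906, whose hosts were also called. Shown are some of the mature sequences whose hosts changed in at least 1 of the 3 experiments, and miR-675 for its host H19, with the seed in capitals (RefSeq, GRCm38.p6).
mmu-miR-9-5p: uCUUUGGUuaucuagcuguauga
mmu-miR-155-5p: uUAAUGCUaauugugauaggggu
mmu-miR-142a-3p: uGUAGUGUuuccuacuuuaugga
mmu-miR-31-5p: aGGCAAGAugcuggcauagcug
mmu-miR-101a-3p: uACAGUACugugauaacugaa
mmu-miR-770-5p: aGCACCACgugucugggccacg
mmu-miR-675-5p: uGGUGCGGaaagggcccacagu
Mir9-3hg was at 3.85 and 4.65 FPKM in the cKO control and 0.903 and 1.13 in the Ogt cKO (-1.38 ± 0.18, adjusted p = 0.0016). Gm3764 went from 4.26 and 5.30 to 1.22 and 1.73 (-1.23 ± 0.38, adjusted p = 0.030) and C130071C03Rik from 1.41 and 1.91 to 0.168 and 0.352 (-1.08 ± 0.27, adjusted p = 0.014). In each of the 3 hosts both controls lay above both Ogt cKO libraries, and the levels in the wild-type Aβ control, 1.27 and 1.46 FPKM for Mir9-3hg, were near those of the Ogt cKO. Mir155hg, host of miR-155, a microRNA of activated macrophages and lymphocytes, was at 0.333 and 0.203 FPKM in the cKO control, on 9 and 6 reads, and at 0.887 and 1.78 in the Ogt cKO (0.86 ± 0.26, adjusted p = 0.030). Its call was lost without cKO control replicate 1, cKO control replicate 2 or Ogt cKO replicate 2 (0.58 to 1.14). E130102H24Rik, host of miR-101a (-0.83 ± 0.28, adjusted p = 0.042), and 2900076A07Rik, host of miR-1839 (-0.49 ± 0.15, adjusted p = 0.031), were lower as well. Gm3764, C130071C03Rik, E130102H24Rik and 2900076A07Rik were named after their values were seen. Whether their calls hold with 1 library left out is not given here.

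Small nucleolar RNAs guide the chemical marking of ribosomal RNA and are cut from introns of host genes. Of the 6 host genes listed 3 were higher in the Ogt cKO and none lower, with a median difference of 1.07 beside -0.00 for all genes tested. Of all genes tested 22.6% were called higher and 19.8% lower, and 6 genes are too few to set against these shares. Snhg6 was at 10.6 and 8.21 FPKM in the cKO control and 25.9 and 25.9 in the Ogt cKO (1.38 ± 0.29, adjusted p = 0.0071). Snhg12 stood at 2.63 and 2.40, then 6.43 and 7.09 (1.14 ± 0.29, adjusted p = 0.014) and Epb41l4aos at 9.38 and 8.46, then 32.8 and 29.00 (1.68 ± 0.37, adjusted p = 0.0082). Both Ogt cKO libraries lay above both controls in all 3 hosts, with group means 2.69 to 3.47 times as high. Snhg18 and Snhg10 had differences of 0.99 ± 0.38, adjusted p = 0.065, and 0.78 ± 0.31, adjusted p = 0.068, and Snhg20 was at -0.58 ± 0.28, adjusted p = 0.11. Snhg6 was not called without cKO control replicate 2 (1.22 to 1.55), Epb41l4aos without cKO control replicate 2 or Ogt cKO replicate 1 (1.60 to 1.77) and Snhg12 whichever library was left out (1.08 to 1.20). Snhg6 overlaps Mcmdc2 on the other strand, which was at 0 and 0.0164 FPKM in the cKO control and 0.0107 and 0 in the Ogt cKO. Gm26917, in the stretch that matches ribosomal RNA, went from 18.99 and 14.4 to 88.5 and 57.5 FPKM (2.04 ± 0.26, adjusted p = 0.0013).

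The lincRNAs Pantr1 and Gm12688, each beside a neural transcription factor gene, fell in the Ogt cKO, as did those genes. Pantr1, divergent from the cortical factor gene Pou3f3, went from 1.63 and 1.35 to 0.414 and 0.434 FPKM (-0.80 ± 0.16, adjusted p = 0.0066), and Pou3f3 from 17.5 and 22.2 to 2.77 and 3.20 (-2.38 ± 0.29, adjusted p = 0.0012). Gm12688, divergent from Foxd3, a factor gene of the neural crest, went from 3.63 and 8.02 to 0.544 and 0.534 (-2.07 ± 0.56, adjusted p = 0.019), and Foxd3 from 13.4 and 28.02 to 2.16 and 1.13 (-2.98 ± 0.52, adjusted p = 0.0041). For Gm12688 the fall was not called without cKO control replicate 2, Ogt cKO replicate 1 or Ogt cKO replicate 2 (-2.55 to -1.59). Gm29157, on the same strand as the secreted-peptide gene 1500015O10Rik and 337 bp from it, went from 3.64 and 4.44 to 0.104 and 0.509 (-1.96 ± 0.35, a description with no test because the gene met the level rule only through the cKO controls) beside -3.59 for that gene. Gm45869, another gene that met the rule only through the cKO controls, was at 1.96 and 7.11 FPKM there, far apart, and at 0.0373 and 0 in the Ogt cKO (-2.27 ± 0.42). 6330403K07Rik fell from 8.45 and 9.64 to 1.19 and 1.59 (-2.07 ± 0.20, adjusted p = 0.00061). Divergent partners also rose together: Gm15473 and the cytoskeletal gene Tes lie 153 bp apart, and Gm15473 went from 0.360 and 0.206 to 4.96 and 4.55 FPKM (2.17 ± 0.36, adjusted p = 0.0034), Tes from 6.23 and 5.62 to 40.6 and 40.00 (2.58 ± 0.51, adjusted p = 0.0061). Of the 83 lincRNA genes called in this experiment 46 lay within 10 kb of a coding gene, 36 of these coding genes were tested and 22 called, 17 in the direction of the lincRNA and 5 in the other. Of all genes tested 42.3% were called in this experiment, 22.6% higher and 19.8% lower. Neighbours of lincRNAs that were not called were not counted, so these numbers do not show whether neighbours change together. The 5 pairs that went apart were Epb41l4aos with Epb41l4a, 1700020I14Rik with Oip5, Gm39469 with 2010315B03Rik, Lppos with Lpp and Gm21781 with Zbtb2. The call of Gm39469 (0.81 ± 0.28, adjusted p = 0.044) was lost whichever library was left out (0.56 to 1.07), under quantile normalization, when rescaled to the total of reads and with voom.

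In the AD model the largest rise was that of AW112010, a lincRNA of activated macrophages, and few others passed the test. Of 219 genes 25 were called, 12 higher and 13 lower, which is 11.4% against 17.1% of all genes tested (9.8% higher, 7.27% lower). The median difference was -0.02, the same as over all genes. Among the 198 genes that met the level rule also with either arm left out, 21 were called. A fit on the 4 AD libraries alone called 2 genes, AW112010 and Gm36161, while leaving out 1 AD library gave 24 to 34. The direction and the genes moved with the library: 9 were higher and 20 lower without AD control replicate 1, 14 and 10 without AD control replicate 2, 11 and 14 without AD model replicate 1 and 24 and 10 without AD model replicate 2, and of the 25 genes 20, 14, 16 and 17 were called in these fits. Of 11 microglia markers 7 were higher and none lower (summed 1131 and 1657 FPKM in the controls, 3593 and 5769 in the model), as were 5 of 6 oligodendrocyte markers (60.3 and 109, then 297 and 357). Of the other lists 5 of 7 pericyte and smooth muscle markers (3677 and 1673, then 746 and 204), 4 of 6 fibroblast markers (1870.3 and 928, then 744 and 338) and 3 of 11 astrocyte markers (472 and 660.4, then 247 and 275) were lower and none higher. Their part in the lincRNA differences was not tested.

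AW112010, at chr19:11047617-11050566 on the minus strand, was the lincRNA with the largest rise in both this experiment and the Aβ experiment. It is induced by interferon and bacterial products in macrophages and has been reported to be translated from a start codon other than AUG. AW112010 was at 1.42 and 0.661 FPKM in AD controls and 15.3 and 19.1 in AD model cells (3.17 ± 0.33, adjusted p = 0.00034). With Aβ it went from 0.845 and 0.523 to 20.2 and 21.5 FPKM (3.71 ± 0.33, adjusted p = 9.0e-05). The AD model and Aβ-treated libraries lay within 15.3 to 21.5 FPKM and every other library was at or below 3.58, so the groups do not overlap, and the group means stood 16.5 and 30.5 times above their controls. Both calls held under every alternative tried, the AD one also in the fit on 4 libraries (adjusted p = 0.021). The promoter is shown for that reason. It holds 1 match to the kappa B motif, the binding sequence of NF-kappa B, in capitals and 70 bases before the start, as the reverse complement. That motif, searched on both strands, is found in 8.46% of all 32851 promoters and in 9 of the 81 lincRNA promoters.
AW112010 promoter, chr19:11050517-11050816, minus strand, GRCm38.p6, RefSeq: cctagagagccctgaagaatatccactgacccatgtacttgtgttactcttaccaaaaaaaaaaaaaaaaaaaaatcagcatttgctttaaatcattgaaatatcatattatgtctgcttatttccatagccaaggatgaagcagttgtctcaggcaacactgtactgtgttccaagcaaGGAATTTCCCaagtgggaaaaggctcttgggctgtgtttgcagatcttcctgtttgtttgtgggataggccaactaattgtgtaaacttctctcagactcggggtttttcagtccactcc
Neither the match nor its lack in another window says anything of binding in these cells.

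A set of predicted genes at low levels in the AD controls rose beside it. Gm32089 had no read in any AD or Aβ control library. In the AD model it was at 4.60 and 1.24 FPKM, from 97 and 27 reads, at least 19.2-fold above a floor of 3 reads per control library (1.83 ± 0.36, adjusted p = 0.0086). AU022793 went from 0.264 and 0.739 to 5.34 and 2.71 FPKM (1.71 ± 0.30, adjusted p = 0.0051) and Gm36161 from 0.0803 and 0.135 to 3.07 and 3.82 (2.00 ± 0.28, adjusted p = 0.0017). Gm32089 and AU022793 were higher in AD model replicate 1 than in replicate 2, but both AD model libraries were above both controls in all 3 genes. Mir142hg, host of miR-142, a microRNA of blood and immune cells including microglia, was at 0.225 and 0.946 FPKM, on 1 and 5 reads, and 3.58 and 3.47, on 17 and 17 (1.55 ± 0.41, adjusted p = 0.031). That call was lost without AD control replicate 1, AD model replicate 1 or AD model replicate 2 (1.22 to 1.88). Gm13293 went from 0.450 and 0.725 to 1.96 and 2.82 (1.09 ± 0.20), but met the level rule only through the AD model libraries, so no test is given.

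Among the falls in the AD model was Gm17501, divergent from Cyr61, a gene of the cell matrix that is induced by stretch and serum. Gm17501 was at 19.2 and 18.6 FPKM in AD controls and 9.59 and 5.31 in the AD model (-1.28 ± 0.31, adjusted p = 0.021), and Cyr61 at 536 and 663, then 454 and 374 (-0.53 ± 0.18, adjusted p = 0.082). The groups do not overlap, and the call of Gm17501 was lost without AD control replicate 1, AD control replicate 2 or AD model replicate 2 (-1.65 to -0.91). Gm13710, from 4.39 and 9.02 to 1.52 and 1.25 FPKM, had the largest called fall (-1.62 ± 0.39, adjusted p = 0.021), lost without AD control replicate 2, AD model replicate 1 or AD model replicate 2 (-2.07 to -1.18). 2010320M18Rik, divergent from the lipid kinase subunit gene Pik3r2, went from 10.6 and 13.5 to 5.94 and 6.15 (-0.88 ± 0.17, adjusted p = 0.0089) and was called whichever library was left out. The host Mir9-3hg went from 4.91 and 7.54 to 3.37 and 3.06 (-0.75 ± 0.18, adjusted p = 0.023), a call lost without AD control replicate 2, AD model replicate 1 or AD model replicate 2 (-1.02 to -0.49), and the other 2 miR-9 hosts did not pass. H19, the imprinted host of miR-675, had the most uneven values: 119.7 and 89.5 FPKM in AD controls and 37.9 and 0.313 in the AD model. Its difference of -3.87 ± 1.20, adjusted p = 0.057, was larger in size than any called one and did not pass the test. Malat1 (0.46 ± 0.63, adjusted p = 0.69) and Neat1 (0.46 ± 0.63, adjusted p = 0.69) did not pass either, with controls that lay below and above the model libraries.

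With Aβ treatment the largest rise was again that of AW112010, given above, and a wider set of lincRNAs passed the test. Of 219 genes 63 were called, 34 higher and 29 lower, or 28.8% against 35.9% of all genes tested (20.8% higher, 15.1% lower). Under quantile normalization the split was 26 higher and 45 lower, so the balance between directions depends on the scaling. The median difference was -0.04 over the lincRNAs and over all genes. Among the 184 genes that met the level rule also with either arm left out, 45 were called, 19 higher and 26 lower. The count was 34 without Aβ control replicate 1, 39 without Aβ control replicate 2 and 36 without either treated library. All 6 of 6 oligodendrocyte markers (summed 24.0 and 20.1 FPKM untreated, 251 and 121 treated) and 4 of 6 endothelial markers (299 and 248, then 596 and 849) were higher and none lower. Of 7 pericyte and smooth muscle markers 6 were lower and none higher (4047 and 3556, then 481 and 416). Of 11 astrocyte markers 2 were higher and 1 lower, of 6 fibroblast markers 1 higher and 3 lower, and microglia markers split, 3 of 11 higher and 2 lower (2368 and 3929, then 6501 and 4922, most of it Lyz2, which was not called). Their part in the lincRNA differences was not tested.

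The genes that rose next to AW112010 were Gm32089, Gm11216, Gm33370, Gm36161 and AU022793. Gm32089 had no read in the Aβ controls and 169 and 119 in the treated libraries, at 8.36 and 5.58 FPKM, at least 46.9-fold above the floor of 3 reads (2.97 ± 0.36, adjusted p = 0.00043). Gm11216 was at 0.835 and 0.488 FPKM untreated and 9.34 and 9.81 treated (2.68 ± 0.40, adjusted p = 0.0013). Gm33370 went from 0 and 0.706 to 4.23 and 5.50 (2.16 ± 0.29, adjusted p = 0.00077), Gm36161 from 0.157 and 0 to 5.09 and 2.71 (2.14 ± 0.28, adjusted p = 0.00065) and AU022793 from 0.430 and 0.293 to 5.92 and 3.13 (1.98 ± 0.30, adjusted p = 0.0014). In all of these both treated libraries were above both untreated ones, and every call held whichever library was left out. Mirt1, a lincRNA first described in the infarcted heart, was nearly silent untreated, at 0.0683 and 0 FPKM on 10 and 0 reads, and at 1.18 and 1.80 treated, on 173 and 278 (1.26 ± 0.20). It met the level rule only through the treated libraries, so that difference is given with no test. AL805899.1, which holds miR-31 and was named after its values were seen, went from 0.925 and 0.265 to 2.72 and 2.52 (1.21 ± 0.37, adjusted p = 0.033). Whether that call holds with 1 library left out is not given here. Also higher was 1700020I14Rik, known as Cyrano or Oip5os1, a conserved lincRNA that triggers the decay of miR-7, from 2.93 and 3.22 to 9.25 and 8.73 FPKM (1.30 ± 0.15, adjusted p = 0.00038).

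Of the falls with Aβ the largest was that of Gm17501, from 24.3 and 24.4 to 6.71 and 4.42 FPKM (-1.97 ± 0.31, adjusted p = 0.0016), with a mean 4.37-fold lower, beside Cyr61 at 854 and 743, then 419 and 487 (-0.82 ± 0.18, adjusted p = 0.0084). Meg3, the imprinted maternal RNA that restrains growth, was at 3.57 and 3.68 FPKM untreated and 0.682 and 0.672 treated (-1.46 ± 0.25, adjusted p = 0.0024), from 1093 and 1155, then 209 and 217 reads. The groups lay far apart and the call held under every alternative, with Rian, which follows Meg3 in the same imprinted cluster but is listed as a processed transcript, at 9.46 and 8.15, then 1.10 and 1.45 FPKM (-2.11 ± 0.30, adjusted p = 0.0011). H19 pointed the same way, 24.5 and 35.3, then 5.28 and 5.76 FPKM, but did not pass (-2.22 ± 1.20, adjusted p = 0.17). Snhg18, a snoRNA host divergent from the axon guidance gene Sema5a, went from 16.2 and 15.6 to 5.12 and 4.52 (-1.54 ± 0.38, adjusted p = 0.014), a call lost whichever library was left out (-1.61 to -1.46). Of the 6 snoRNA hosts it was the one called, and none was higher. Gm15473, the partner of Tes, went from 5.12 and 5.32 to 1.00 and 0.855 (-1.69 ± 0.36, adjusted p = 0.0069), while Tes was at 39.4 and 35.5, then 20.6 and 25.9 (-0.67 ± 0.51, adjusted p = 0.33). Gm45353 (-1.78 ± 0.40, adjusted p = 0.0087) and A730020M07Rik (-1.75 ± 0.39, adjusted p = 0.0084) fell too, the first not called without Aβ control replicate 1 or Aβ-treated replicate 1 (-1.98 to -1.57), the second without Aβ control replicate 1 or Aβ-treated replicate 2 (-1.96 to -1.54). Malat1 (-0.55 ± 0.63, adjusted p = 0.52) and Neat1 (0.14 ± 0.63, adjusted p = 0.88) did not pass. Of 63 called genes 31 lay within 10 kb of a coding gene, 27 of these were tested and 12 called, 11 in the same direction. Of all genes tested 35.9% were called with Aβ, 20.8% higher and 15.1% lower.

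The AD model and Aβ treatment, which share no libraries, called 15 lincRNA genes in common, 60.0% of the 25 called in the AD model and 23.8% of the 63 called with Aβ. Higher in both were 9, AW112010, AU022793, Gm32089, Gm36161, G930009F23Rik, Gm14221, Gm34643, Gm13391 and Gm14275, and lower in both 5, Tmem250-ps, Gm17501, 2010320M18Rik, Gm32618 and Gm34934. Gm34643 and Gm13391 met the level rule only through the Aβ-treated libraries and Gm14275 only with both treated arms, so their rises there are descriptions. Gm32089, AU022793 and G930009F23Rik reached 1 FPKM in no control library, so for them too being higher in both is a description. Gm35040 was lower in the AD model (-1.05 ± 0.14, adjusted p = 0.0015) and higher with Aβ (0.43 ± 0.14, adjusted p = 0.042), the latter a call lost without Aβ control replicate 1, Aβ control replicate 2 or Aβ-treated replicate 1 (0.28 to 0.59). That Aβ call was also lost with no filter on low values, with a filter of at least 5 FPKM and under quantile normalization. A replicate block and the fit on 4 libraries ended it too. Over all 14014 genes tested the 2 experiments called 1607 in common, 67.2% of those called in the AD model and 32.0% of those called with Aβ, and 96.9% of the 1607 had the same direction. Of the 25 genes called in the AD model 10 lay within 10 kb of a coding gene, 8 of these coding genes were tested and 2 called, Pik3r2 beside 2010320M18Rik and Samd4 beside Gm34934, both in the direction of the lincRNA. Of all genes tested 17.1% were called in the AD model. Gm34643 lies 22520 bp from Acod1, the gene that makes itaconate in activated macrophages, and was at 0.0794 and 0 FPKM, then 1.19 and 0.768, in the AD experiment and 0.0517 and 0.0252, then 1.83 and 1.17 in the Aβ experiment. Acod1 went from 0 and 0.310 to 26.4 and 107 and from 0.293 and 0.483 to 34.2 and 27.2 FPKM. In the Ogt cKO Acod1 rose as well, from 0.789 and 0.425 to 53.5 and 48.4 FPKM, whereas Gm34643 was at 0 and 0.0424, then 0.250 and 0.0817.

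**Figure D4:**
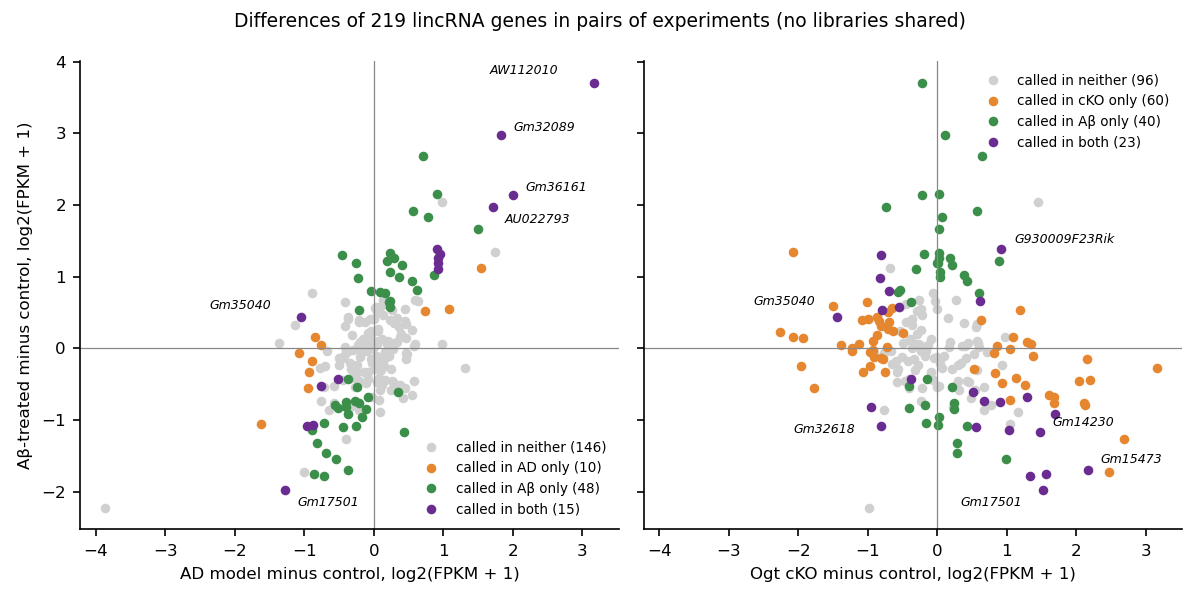
Differences on the log2(FPKM + 1) scale of 219 lincRNA genes, Aβ-treated minus control on the vertical axis against AD model minus control (left) and Ogt cKO minus control (right), coloured by the comparisons in which a gene was called. On the left 14 of 15 genes called in both have the same sign on both axes; on the right 18 of 23 have opposite signs.

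The Ogt cKO and Aβ experiments called 23 genes in common, 27.7% of the 83 and 36.5% of the 63, and most of them went opposite ways: 12 were higher in the Ogt cKO and lower with Aβ, 6 lower and then higher, 2 higher in both and 3 lower in both. Over all genes tested 2252 were called in both, 38.0% and 44.8% of the calls of the 2 experiments, and 83.2% of them went opposite ways. In each of the 12 the group means of the cKO control and of the Aβ-treated cells lay below those of both the Ogt cKO and the Aβ control. Among them Gm36033 and 1700036A12Rik met the level rule only through the Aβ controls and AC165259.1 only through the Ogt cKO libraries. For these the pattern is a description. Gm17501 was at 9.12 and 4.62, 20.95 and 20.5, 24.3 and 24.4, and 6.71 and 4.42 FPKM in the order cKO control, Ogt cKO, Aβ control and Aβ-treated, its call in the Ogt cKO being lost without cKO control replicate 2 (1.10 to 1.95). Gm15473 was at 0.360 and 0.206, 4.96 and 4.55, 5.12 and 5.32, and 1.00 and 0.855 in that order. The pericyte and smooth muscle markers had the same order in their sums, 993 and 498, 3979 and 4026, 4047 and 3556, and 481 and 416 FPKM, and their part was not tested. Acta2 made up most of these sums, at 870 and 420, 3589 and 3600, 3550 and 3143, and 413 and 351 FPKM. Of the 7 markers 4 were called higher in the Ogt cKO and 6 lower with Aβ. Pdgfrb (-0.06) and Rgs5 (-0.13) did not rise in the Ogt cKO, and Rgs5 was at 0.34 with Aβ, not called. The Ogt cKO and AD experiments shared 9 called genes, 10.8% and 36.0% of the calls of the 2 experiments. Of these 1 was higher and 6 lower in both, and 2, Gm17501 and Gm39469, were higher in the Ogt cKO and lower in the AD model. The Ogt cKO call of Gm39469 was lost whichever library was left out. Over all genes tested 1142 were called in both, 19.2% and 47.7% of the calls, and 60.2% of them had the same direction.

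Tested directly, the difference between 2 experiments' effects was called for 5 lincRNA genes between AD and Aβ (6.14% of all genes tested were), for 45 between Ogt cKO and AD (25.6%) and for 103 between Ogt cKO and Aβ (52.3%). Under quantile normalization the split of higher and lower effects in the Ogt cKO was 27 and 16 against AD, in place of 23 and 22, and 57 and 41 against Aβ, in place of 49 and 54. The few between AD and Aβ included 1700020I14Rik, C130083M11Rik and Gm38910, which were called higher with Aβ and did not pass in the AD model. Gm38910 met the level rule only through the Aβ-treated libraries, so this difference is a description. In C130083M11Rik the AD controls were already at 3.48 and 2.19 FPKM, beside 2.62 and 1.78 in the AD model, 0.457 and 0.611 untreated and 3.08 and 1.97 with Aβ. The other two were Gm35040 (-1.48 ± 0.20, adjusted p = 0.0082, AD minus Aβ) and Gm36033 (0.96 ± 0.21), which met the level rule only through the Aβ controls. It was at 0.129 and 0.0543 FPKM in the AD controls, 0.422 and 0.351 in the AD model, 1.13 and 1.53 untreated and 0.629 and 0.418 with Aβ. The count of 5 was 16 without AD control replicate 1, 18 without AD model replicate 1, 2 without Aβ control replicate 1, Aβ control replicate 2 or Aβ-treated replicate 1, and 3 without Aβ-treated replicate 2. That of 45 was 24 and 21 without cKO control replicates 1 and 2, 20 and 21 without Ogt cKO replicates 1 and 2, 26 without AD control replicate 1 or AD model replicate 2 and 77 without AD control replicate 2. In all 3 experiments G930009F23Rik was called higher, at 0 and 0.0172, then 0.744 and 1.11 FPKM in the Ogt cKO experiment (0.93 ± 0.15, adjusted p = 0.0030), 0.344 and 0.144, then 1.22 and 1.44 in the AD experiment (0.91 ± 0.15, adjusted p = 0.0037) and 0.399 and 0.429, then 2.66 and 2.74 in the Aβ experiment (1.39 ± 0.15, adjusted p = 0.00024). G930009F23Rik reached 1 FPKM in Ogt cKO, AD model and Aβ-treated libraries only, so being higher in all 3 experiments together is a description. Tmem250-ps and Gm32618 were lower in all 3: Tmem250-ps changed by -0.38, -0.51 and -0.43 and Gm32618 by -0.82, -0.97 and -1.09 in the same order. Leaving out single libraries ended calls of both genes in every experiment, the 3 differences of Tmem250-ps reaching -0.43 to -0.34, -0.66 to -0.36 and -0.49 to -0.37 and those of Gm32618 -1.06 to -0.57, -1.33 to -0.60 and -1.19 to -0.98. The AD and Aβ calls of Tmem250-ps were also lost when rescaled to the total of reads and with voom on recovered reads. Its Aβ call was lost under quantile normalization. In the fit on 4 libraries the AD calls of Tmem250-ps and Gm32618 were lost, and that of Gm32618 also with voom. With no filter on low values the Ogt cKO calls of both genes and the AD call of Gm32618 were lost. No experiment called 90 of the 219 genes.

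**Figure D5:**
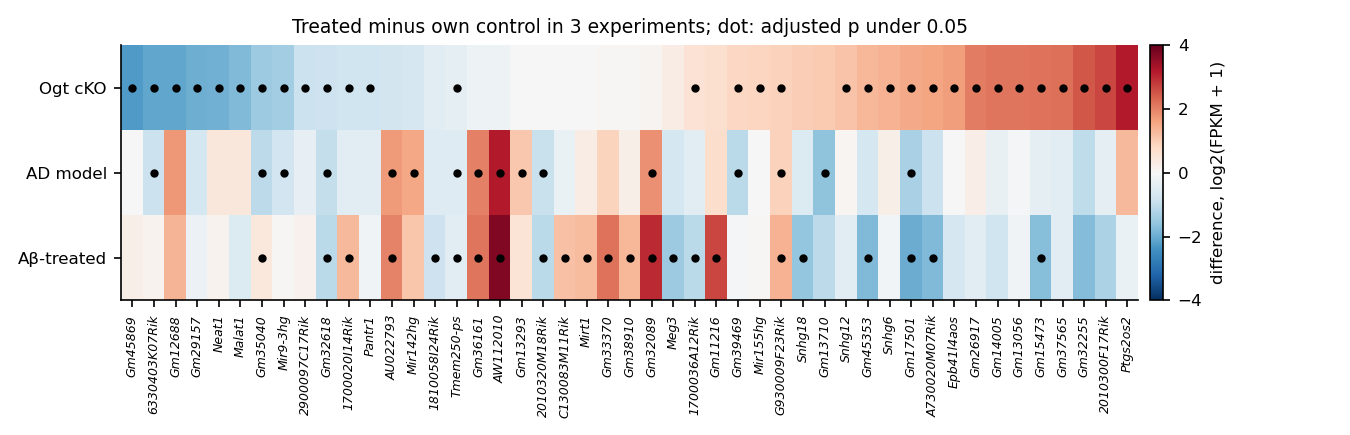
Difference between treated and control groups on the log2(FPKM + 1) scale for 47 named lincRNA genes called in at least 1 of 3 experiments, ordered by the Ogt cKO difference, with a black dot where the adjusted p was under 0.05. AW112010 is the darkest cell of the AD and Aβ rows at 3.17 and 3.71 and near 0 in the Ogt cKO row at -0.21. The dots of Gm29157 and Gm45869 (Ogt cKO), Gm13293 (AD) and Mirt1, Gm38910 and 1700036A12Rik (Aβ) belong to genes that met the level rule only through 1 arm of that comparison.

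Proteins that act on or bind noncoding RNA are coded by ordinary genes measured in the same libraries. Of 13 measured genes of the nuclear exosome and its adaptor complex, which degrade unstable nuclear transcripts, 6 rose and 1 fell in the Ogt cKO, none was called in the AD model and 1 was higher and 3 lower with Aβ. The catalytic subunit gene Dis3 was at 1.17 ± 0.29, adjusted p = 0.014, in the Ogt cKO, and the adaptor gene Zcchc8 at -0.49 ± 0.16, adjusted p = 0.035. The core subunits Exosc1, Exosc2 and Exosc4 were higher in the Ogt cKO (0.56, 0.68 and 0.49) and lower with Aβ (-0.35, -0.54 and -0.43). Of 7 core genes of Polycomb repressive complex 2, which several lincRNAs are known to bind, 3 rose and 2 fell in the Ogt cKO, Ezh2 by 0.74 and Ezh1 by -1.29. In the AD model Suz12 alone of the 7 was called (0.60), and with Aβ it was higher too (1.74), beside Jarid2 higher and Rbbp7 lower. Exosc6 was listed at 0 in all libraries. Among other biotypes at the same threshold, 44.0%, 18.4% and 38.0% of coding genes and 26.9%, 7.78% and 22.2% of antisense RNAs were called in the Ogt cKO, AD and Aβ comparisons, beside 37.9%, 11.4% and 28.8% of the lincRNAs. These shares were not tested against each other, and the classes differ in depth, with a median of 581, 17.2 and 28.4 reads per library.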

How the data were processed

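RNA sequencing libraries of 12 samples, 2 in each of 6 groups told apart by the sample descriptions, were analysed from the table of FPKM values the authors deposited for all libraries, with gene names, biotypes and lengths. The genome build was mm10, per the submitters' processing notes, and the sources used here do not give the aligner, the counter or the annotation release. Reads per gene were recovered from FPKM and gene length (100% of values whole within 0.1 read), giving 16418852 to 18705309 reads per library. The 14014 genes that reached 1 FPKM in 2 libraries or more entered a limma fit (version 3.58.1, R 4.3.3) on log2(FPKM + 1), with all 6 groups in 1 fit (6 residual degrees of freedom) and Benjamini-Hochberg adjustment over all of them, and a gene was called at an adjusted p under 0.05. A pseudocount of 1 FPKM understates the change of low genes. The difference between experiments was tested as a contrast in the same fit. The procedure was tested on simulated data. The alternatives were pseudocounts of 0.1 and 0.5, other filters, quantile and median-of-ratios scaling, a replicate block, the 4 libraries of a comparison alone, voom on recovered reads and leaving out each library. Rescaling to the total of reads and a block with crossed Aβ numbers were added after seeing the data.

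The genes and lists were chosen with earlier results of these data known. Named genes are the 10 highest, the 6 largest called rises and falls per comparison without overlap whose higher group averaged 2 FPKM or more, members of listed classes, genes called alike in all 3 comparisons, the 4 largest called differences between experiments per pair, genes at the edge of the level rule, and coding genes within 10 kb of these. Gm3764, C130071C03Rik, E130102H24Rik, 2900076A07Rik, AL805899.1, AC165259.1, Gm14221, Gm34643, Gm13391, Gm14275, Gm36033, Gm34934, Lppos, Gm21781, Zfp469, Lsmem2 and Gm42418 fall outside that rule and were named after their values were seen, as were Ptgs2, Bcl2l11, Acod1, Skap1, Mcmdc2 and Rian. Genes matched GENCODE M21 by identifier in 219 of 219 cases, and RefSeq promoters (GRCm38.p6) by symbol in 126. Samples with the same replicate number were not treated as pairs in the main fit. Their deviations from the group means correlated at 0.0332 and -0.169 in the Ogt cKO and Aβ experiments. In the AD experiment the value was 0.551, so same-numbered AD libraries deviated alike, and whether they were paired is not known. Python 3.11.15, pandas 2.3.3, numpy 2.4.6 and matplotlib 3.10.9 were used.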

Additional observations from a re-analysis of the deposited data

Results flagged for a closer look

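These lincRNA genes are set apart because a test of the difference between the effects of 2 experiments, limma's contrast on log2(FPKM + 1) with adjustment over all 14014 genes, passed the threshold and the genes had the largest such differences. The AD effect minus the Aβ effect differed for 1700020I14Rik by -1.75 ± 0.21 (adjusted p = 0.0070), Gm35040 by -1.48 ± 0.20 (adjusted p = 0.0082), C130083M11Rik by -1.44 ± 0.31 (adjusted p = 0.033) and Gm38910 by -1.09 ± 0.25. In each of these the effect of Aβ was the higher one, and Gm38910 met the level rule only through the Aβ-treated libraries, so that difference is a description. The Ogt cKO effect minus the AD effect differed for Gm12688 by -3.82 ± 0.80 (adjusted p = 0.011), Gm32255 by 3.48 ± 0.95 (adjusted p = 0.029), AW112010 by -3.39 ± 0.46 (adjusted p = 0.0019) and 2010300F17Rik by 3.09 ± 0.87 (adjusted p = 0.032). The Ogt cKO effect minus the Aβ effect differed for Gm32255 by 4.20 ± 0.95 (adjusted p = 0.0063), 2010300F17Rik by 3.95 ± 0.87 (adjusted p = 0.0055), AW112010 by -3.92 ± 0.46 (adjusted p = 0.00037) and Gm15473 by 3.86 ± 0.51 (adjusted p = 0.00061). AW112010 stood lower in the Ogt cKO experiment against both others, and Gm32255 and 2010300F17Rik stood higher against both. The AD controls disagreed in Gm32255, at 6.24 and 0.302 FPKM, beside 1.17 and 0.0815 in the AD model. They also disagreed in 2010300F17Rik, at 4.62 and 0.324, beside 2.30 and 0.291 in the AD model. As given above, leaving out single libraries ended the Ogt cKO calls of Gm32255 and 2010300F17Rik.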

How the results depend on the processing

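With a filter of at least 5 FPKM fewer lincRNA genes remained to be tested, and the counts called were 21 in the Ogt cKO (83 as reported), 9 in the AD model (25), 14 with Aβ (63), 2 for the AD effect against the Aβ effect (5), 14 for Ogt cKO against AD (45) and 26 for Ogt cKO against Aβ (103). With no filter they were 51 in the Ogt cKO and 23 for Ogt cKO against AD. The 4 libraries of a comparison alone gave 127 in the Ogt cKO and 2 in the AD model, and the contrasts between experiments cannot be fitted that way. Leaving out 1 library gave 19 to 43 in the Ogt cKO, 24 to 34 in the AD model, 34 to 39 with Aβ, 2 to 18 for AD against Aβ, 20 to 77 for Ogt cKO against AD and 79 to 95 for Ogt cKO against Aβ. A replicate block gave 97, 34 and 83 genes in the 3 experiments, 9 for AD against Aβ and 71 for Ogt cKO against AD. With the Aβ numbers crossed in that block, an alternative added after seeing the data, the AD count was 39, that for AD against Aβ 13 and that for Ogt cKO against AD 70. The cause of these shifts was not tested. Rescaling to the total of reads, also added after seeing the data, moved the median difference of all genes in the Ogt cKO from -0.002 to -0.190, and voom on recovered reads to -0.250, with 89 and 88 lincRNA genes called. Of 70 called values of named genes, 872 of 1022 alternatives kept direction and call, 150 kept the direction only and 0 changed direction. Depth limits the lowest genes: the least covered called gene had 8, 9 and 6 reads in its highest library in the 3 experiments.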
